A study of Mus musculus with 20 samples.

Results

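Antibody partners of olaparib were compared, checkpoint blockade against anti-VEGFA, in 7 of the 20 mouse tumours of an ovarian cancer treatment study, across 18144 expressed genes of the 55406 in the count table. Olaparib inhibits PARP, an enzyme of DNA repair, and is written PARPi here. All tumours grew in C57/BL6 female mice after intraperitoneal injection of luciferase-expressing cancer cells derived from ID8, a line of mouse ovarian surface epithelium, whose genotype is Trp53-/-Brca1-/-. In the first group, called PARPi+ICB (n = 3), mice received olaparib by mouth at 40 mg/kg per day and immune checkpoint blockade (ICB) with 100 µg anti-CTLA-4 and 200 µg anti-PD-L1. In the second group, called PARPi+anti-VEGFA (n = 4), mice received the same olaparib dose and 20 µg anti-VEGFA. Antibodies were injected intraperitoneally, 2 times a week. Both groups thus carried olaparib and the same tumour genotype, and differed in the partner alone as far as the labels go. The study also held untreated tumours (n = 3), PARPi alone (n = 3), ICB alone (n = 3) and PARPi with both partners, called the full combination (n = 4). Each sample was read from its title as 1 tumour of 1 mouse, and the time on treatment is not given in the sources used here. The p-values below measure the spread between these samples.

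Checkpoint antibodies act on T cells: CTLA-4 competes for costimulatory ligands, and PD-L1 on tumour and myeloid cells engages the inhibitory receptor PD-1. VEGFA is a secreted ligand that drives the growth and leakiness of blood vessels through receptors on endothelial cells, and it is induced in poorly oxygenated tissue. Alternatively activated macrophages, mast cells and eosinophils belong to the type 2 arm of immunity, in which IL-4 and IL-13 act through the factor STAT6, and IL-5 and IL-33 act on eosinophils and mast cells. Antibody-secreting cells derive from B cells and serve all arms of immunity. Type I interferon induces a set of antiviral genes, and can itself be induced when DNA reaches the cytosol.

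The 7 libraries held 26.9 M to 34.7 M counts. Epithelial and mesothelial genes summed to between 2049 and 2378 CPM (counts-per-million, scaled to the effective library size and not to gene length) in the 7 tumours, with 0 of 14 called by edgeR, DESeq2 or limma and 2 of 14 at an unadjusted p under 0.05. Brca1 stood at 13.2 to 21.8 CPM with PARPi+ICB and 18.1 to 24.6 CPM with PARPi+anti-VEGFA, and Trp53 at 57.5 to 60.2 and 58.3 to 63.5 CPM. No tumour of another genotype was used and host cells carry both genes, so these levels do not check the deletions. RNA of pancreatic acinar genes summed to 942 and 1005 CPM in PARPi+anti-VEGFA replicates 1 and 4 and to 11.0 to 15.6 CPM in the other 5 tumours. Heat shock and immediate early genes summed to 943 CPM in PARPi+ICB replicate 2 and to 339 to 434 CPM in the other 6. Adipocyte genes summed to 199 and 111 CPM in PARPi+anti-VEGFA replicates 2 and 3 and to 52.9 to 77.7 CPM in the rest. As a sign of RNA composition, the mean log2 CPM of 3 features (Rn7sk, Lars2 and Mir6236) is called the structural RNA level here. It was 2.95, 3.53 and 3.27 with PARPi+ICB and 2.72 to 2.81 with PARPi+anti-VEGFA. Of the 3, Lars2 is a protein-coding gene, and Lars2 and Mir6236 each overlapped between the groups. The list of structural noncoding RNA summed to 601 to 654 CPM against 527 to 756 CPM, also with overlap. Of its 4 members tested, 0 had an unadjusted edgeR p under 0.05. In bulk tissue, fewer cells of a type and less RNA per cell cannot be told apart.

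Of the 18144 genes, 29 (0.160%) were called, that is, had an edgeR adjusted p under 0.05 over all genes. Of these, 21 (0.116%) were higher with PARPi+ICB and 8 (0.0441%) were higher with PARPi+anti-VEGFA, and 17 differed at least 2-fold. The genes higher with PARPi+ICB included markers of alternatively activated macrophages (Chil3, Retnla) and of mast cells (Mcpt1, Mcpt2). They also included the IL-5 receptor chain Il5ra, the ribonuclease gene Rnase2a, the IL-33 receptor Il1rl1 and the heavy chain of IgM (Ighm). Those higher with PARPi+anti-VEGFA included Lyz1, Mmp9, Il12b, Rad51c and the RNA sensor Ifih1. At an unadjusted p under 0.05, 969 genes (5.34%) were higher and 980 (5.40%) lower with PARPi+ICB, and the median log2 fold change over all genes was 0.01, with 52.2% positive and 47.8% negative. All fold changes below are PARPi+ICB over PARPi+anti-VEGFA. A lack of overlap between the groups was a condition of naming the largest changes in each direction, so it is no separate support for them. The DESeq2 Wald test called 210 of 18144 genes, among them all 29, and the edgeR fit of the 7 libraries alone called 5. Counts called by DESeq2 in the gene lists below stand beside those 210 of 18144. The smallest count on leaving out 1 library was 7, without PARPi+anti-VEGFA replicate 2, and the count was 9 without PARPi+ICB replicate 3 and 13 without PARPi+anti-VEGFA replicate 3. It was also 9 without the 4 libraries of the study that held acinar RNA, which include PARPi+anti-VEGFA replicates 1 and 4. With the structural RNA level as a covariate 17 genes were called, 13 of them among the 29, and the calls lost included Rnase2a, Mcpt1, Mcpt2, Col6a5, Il1rl1, Il12b, Rad51c and Ifih1.

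**Figure D1:**
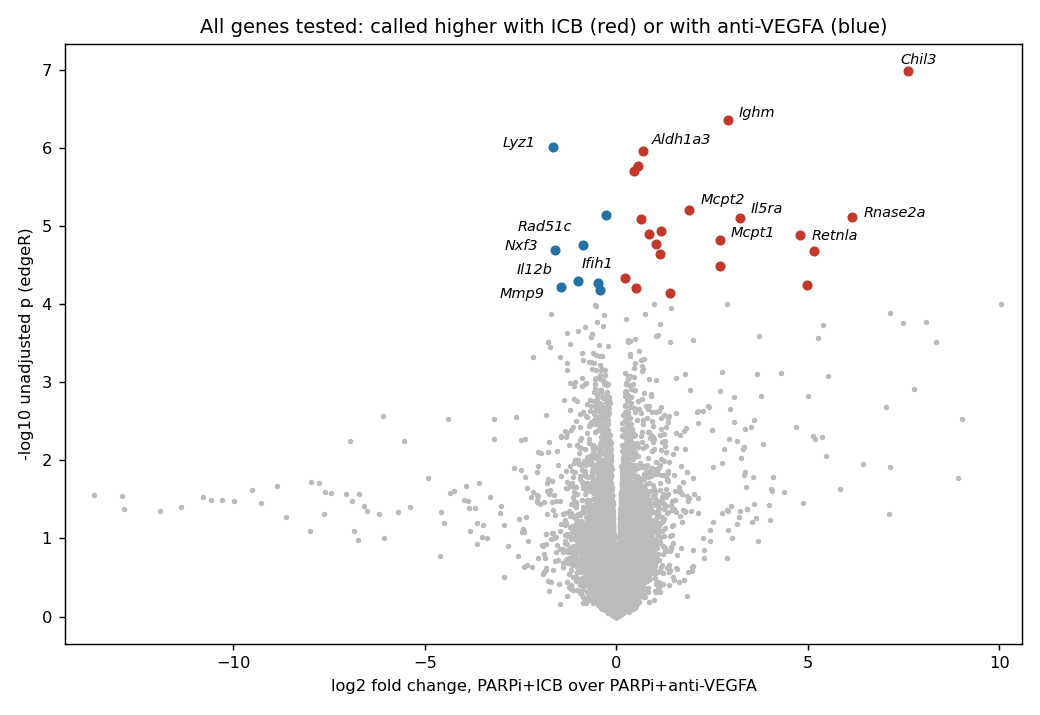
Log2 fold change of PARPi+ICB over PARPi+anti-VEGFA (horizontal axis) against -log10 of the unadjusted edgeR p (vertical axis) for 18144 genes. Red points are the 21 genes called higher with PARPi+ICB, blue points the 8 called higher with PARPi+anti-VEGFA, and grey points were not called; Chil3 has the smallest p.

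Chil3 (ENSMUSG00000040809, GRCm38 chromosome 3, 106147554 to 106167564) encodes Ym1, a chitinase-like protein secreted by alternatively activated macrophages. It stood at 78.5, 69.0 and 477 CPM with PARPi+ICB, and at 0.796, 0.589, 1.60 and 1.36 CPM with PARPi+anti-VEGFA. Every PARPi+ICB tumour lay far above every PARPi+anti-VEGFA tumour, and replicate 3 was the highest. The log2 fold change was 7.61 ± 0.89 (SE), with an edgeR adjusted p of 0.0019, and without PARPi+ICB replicate 3 it was 6.11. Under PARPi alone Chil3 stood at 0.191 to 0.230 CPM, below both groups.

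Retnla (chromosome 16, 48842551 to 48844461), the secreted protein RELM-alpha and another product of these macrophages, stood at 38.6, 31.5 and 190 CPM with PARPi+ICB. With PARPi+anti-VEGFA it stood at 1.24, 4.30, 5.69 and 1.21 CPM. The groups did not overlap, and PARPi+ICB replicate 3 was again the highest tumour. The log2 fold change was 4.80 ± 0.81 with an edgeR adjusted p of 0.0169. The call was lost without PARPi+anti-VEGFA replicates 2 or 4 (adjusted p 0.0608 and 0.0654) and without PARPi+ICB replicate 3 (log2 3.49, adjusted p 0.0894). The other 5 members of the list of alternatively activated macrophage genes did not pass the test. Arg1, which breaks down arginine, stood at 44.3, 87.0 and 230 CPM against 19.6, 38.8, 56.7 and 126 CPM (log2 1.00 ± 0.58, edgeR adjusted p 0.574), so its groups overlapped. Over the 7 members the median log2 fold change was 0.87, and 0.12 without PARPi+ICB replicate 3. The 14 general macrophage genes had a median of 0.08, with 0 called by edgeR, DESeq2 or limma and 3 at an unadjusted p under 0.05. They summed to 4282, 4008 and 6059 CPM with PARPi+ICB against 4370 to 4848 CPM with PARPi+anti-VEGFA. PARPi+ICB replicates 1 and 2 thus lay below all PARPi+anti-VEGFA tumours and replicate 3 above them. Replicate 3 was the highest tumour for 12 of the 14.

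Because Chil3 and Retnla moved together, the 250 bases before each gene start are shown from the RefSeq table (GRCm38.p6), Chil3 at chr3:106167565-106167814 on the minus strand and Retnla at chr16:48842359-48842608 on the plus strand. Capitals mark matches to TTC and GAA with any 4 bases between them, a spacing bound by STAT6 that reads the same on both strands.
Chil3: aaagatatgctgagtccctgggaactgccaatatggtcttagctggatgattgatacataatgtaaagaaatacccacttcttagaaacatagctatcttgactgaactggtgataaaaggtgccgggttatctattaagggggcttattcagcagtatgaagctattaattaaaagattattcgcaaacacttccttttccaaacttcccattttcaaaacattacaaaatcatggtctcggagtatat
Retnla: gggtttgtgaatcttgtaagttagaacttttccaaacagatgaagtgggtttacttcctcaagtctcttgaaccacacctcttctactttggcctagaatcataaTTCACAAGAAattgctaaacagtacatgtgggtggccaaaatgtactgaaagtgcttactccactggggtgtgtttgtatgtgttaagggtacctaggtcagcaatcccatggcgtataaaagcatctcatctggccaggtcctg
Retnla held 1 match, starting at position -145 from the RefSeq gene start, and Chil3 held 0 in this window. For Retnla the RefSeq start lies downstream of the start given with the gene above, so the end of its window falls inside that gene. Over windows of 300 bases (250 before and 50 after the start), 6.95% of 32851 promoters held the motif. A match is a description of the letters only.

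In the list of eosinophil and type 2 genes, Il5ra (chromosome 6, 106710357 to 106749037), the specific chain of the IL-5 receptor, had the smallest p. Il5ra stood at 1.83, 4.14 and 3.94 CPM with PARPi+ICB against 0.324, 0.471, 0.510 and 0.0756 CPM with PARPi+anti-VEGFA. The groups did not overlap, and the log2 fold change was 3.22 ± 0.52 (edgeR adjusted p 0.0135). Without PARPi+anti-VEGFA replicate 2 or PARPi+ICB replicate 3 the adjusted p was 0.0562 and 0.0584. Rnase2a (chromosome 14, 51255262 to 51256112), of the eosinophil-associated ribonuclease family, stood at 1.98, 1.48 and 11.6 CPM against 0.0295, 0.0589, 0.0729 and 0.113 CPM. It is not in that list, and its cell source was not tested. These levels rest on 468 reads in the 3 PARPi+ICB libraries and 8 reads in the 4 PARPi+anti-VEGFA libraries, and PARPi alone had 0 CPM in all 3. The log2 fold change of Rnase2a was 6.16 ± 0.95 (edgeR adjusted p 0.0135), and the call was lost without PARPi+anti-VEGFA replicates 2 or 3 (0.0608 and 0.0517) and without PARPi+ICB replicate 3 (log2 4.63, adjusted p 0.0549). Rnase2a belongs to a family of close paralogs, and its relative Ear2 stood at 4.19, 2.50 and 14.1 CPM against 4.68, 4.36, 5.72 and 3.59 CPM (log2 0.59 ± 0.40, edgeR adjusted p 0.64). Ear2 was thus high in PARPi+ICB replicate 3 alone, and its log2 fold change without that tumour was -0.45.

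Il1rl1 (chromosome 1, 40429570 to 40465415) encodes ST2, the receptor for IL-33 on mast cells and type 2 lymphoid cells. It stood at 6.80, 7.66 and 13.3 CPM with PARPi+ICB against 3.18, 3.27, 3.65 and 3.82 CPM, a log2 fold change of 1.41 ± 0.28 (edgeR adjusted p 0.0453). All 3 PARPi+ICB tumours lay above all 4 others, which was a condition of naming the gene. The call was kept in 1 of 7 fits that each left out a library, with adjusted p from 0.034 to 0.271. Il5, the growth factor of eosinophils, stood at 0.553, 0.154 and 0.529 CPM against 0.0884, 0.0589, 0.109 and 0.0756 CPM, which is 40 reads against 10. Its groups did not overlap either, with a log2 value of 2.27 ± 0.63 and an edgeR adjusted p of 0.194. Of the 11 members of the eosinophil and type 2 list, 7 had enough counts to be tested. Of these, 1 was called (Il5ra), 5 had a positive log2 fold change and the median was 0.80. Summed over the 7, PARPi+ICB tumours stood at 20.8, 21.2 and 40.4 CPM against 20.1 to 24.8 CPM, so the sums overlapped. The chemokine receptor gene Ccr3 stood at 0.262, 0.185 and 1.79 CPM against 0.177, 0.442, 0.0365 and 0.151 CPM (log2 1.80, edgeR adjusted p 0.46). Its groups overlapped, and leaving out 1 library brought its log2 value as low as 0.11.

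Mast cell proteases followed the same direction. Mcpt1 (chromosome 14, 56017971 to 56020384) and Mcpt2 (chromosome 14, 56042041 to 56044642) encode chymases of mucosal mast cells. Mcpt1 stood at 5.29, 22.2 and 16.3 CPM with PARPi+ICB against 0.766, 1.47, 2.63 and 4.27 CPM with PARPi+anti-VEGFA, a log2 fold change of 2.69 ± 0.46 (edgeR adjusted p 0.0186). Mcpt2 stood at 8.64, 21.5 and 18.7 CPM against 2.68, 3.89, 4.27 and 6.61 CPM, a log2 fold change of 1.90 ± 0.30 (edgeR adjusted p 0.0135). In both genes PARPi+ICB replicate 1 was the lowest of its group and still above every PARPi+anti-VEGFA tumour. The call of Mcpt1 was lost without PARPi+anti-VEGFA replicates 2 or 3 (0.0836 and 0.0562) or PARPi+ICB replicates 2 or 3 (0.0892 and 0.0715). Mcpt2 lost its call without PARPi+anti-VEGFA replicate 2 (0.0564) or PARPi+ICB replicate 3 (0.0584). The 2 genes are paralogs, so reads could be split between them.

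A separate list of 8 mast cell genes, which does not hold Mcpt1 or Mcpt2, had 0 called by edgeR, 1 by DESeq2 and 0 by limma. Of its members, 7 had a positive log2 fold change, all 7 at an unadjusted p under 0.05 (5.34% of all genes) and without overlap between the groups (5.09% of all genes), and the median was 0.98. Without PARPi+anti-VEGFA replicate 1, 4 of the 7 had an unadjusted p under 0.05. The tryptase Tpsb2 stood at 17.0, 18.0 and 12.7 CPM against 6.36, 5.24, 7.40 and 4.61 CPM (log2 1.43 ± 0.29, edgeR adjusted p 0.0588). The granule carboxypeptidase Cpa3 stood at 13.9, 16.7 and 12.3 CPM against 7.51, 7.30, 7.99 and 5.37 CPM (log2 1.02 ± 0.29, edgeR adjusted p 0.194). Ms4a2, the beta chain of the high-affinity IgE receptor, gave a log2 value of 1.19 ± 0.38, and Hdc, which makes histamine, of 0.30 ± 0.11. Kit, the stem cell factor receptor that mast cells carry, went the other way, at 36.7, 38.2 and 34.1 CPM against 41.2, 49.6, 53.1 and 47.4 CPM (log2 -0.40 ± 0.15, edgeR adjusted p 0.338). The summed level of the 8 genes was 105 to 124 CPM with PARPi+ICB and 85.0 to 107 CPM with PARPi+anti-VEGFA, so the sums overlapped.

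**Figure D2:**
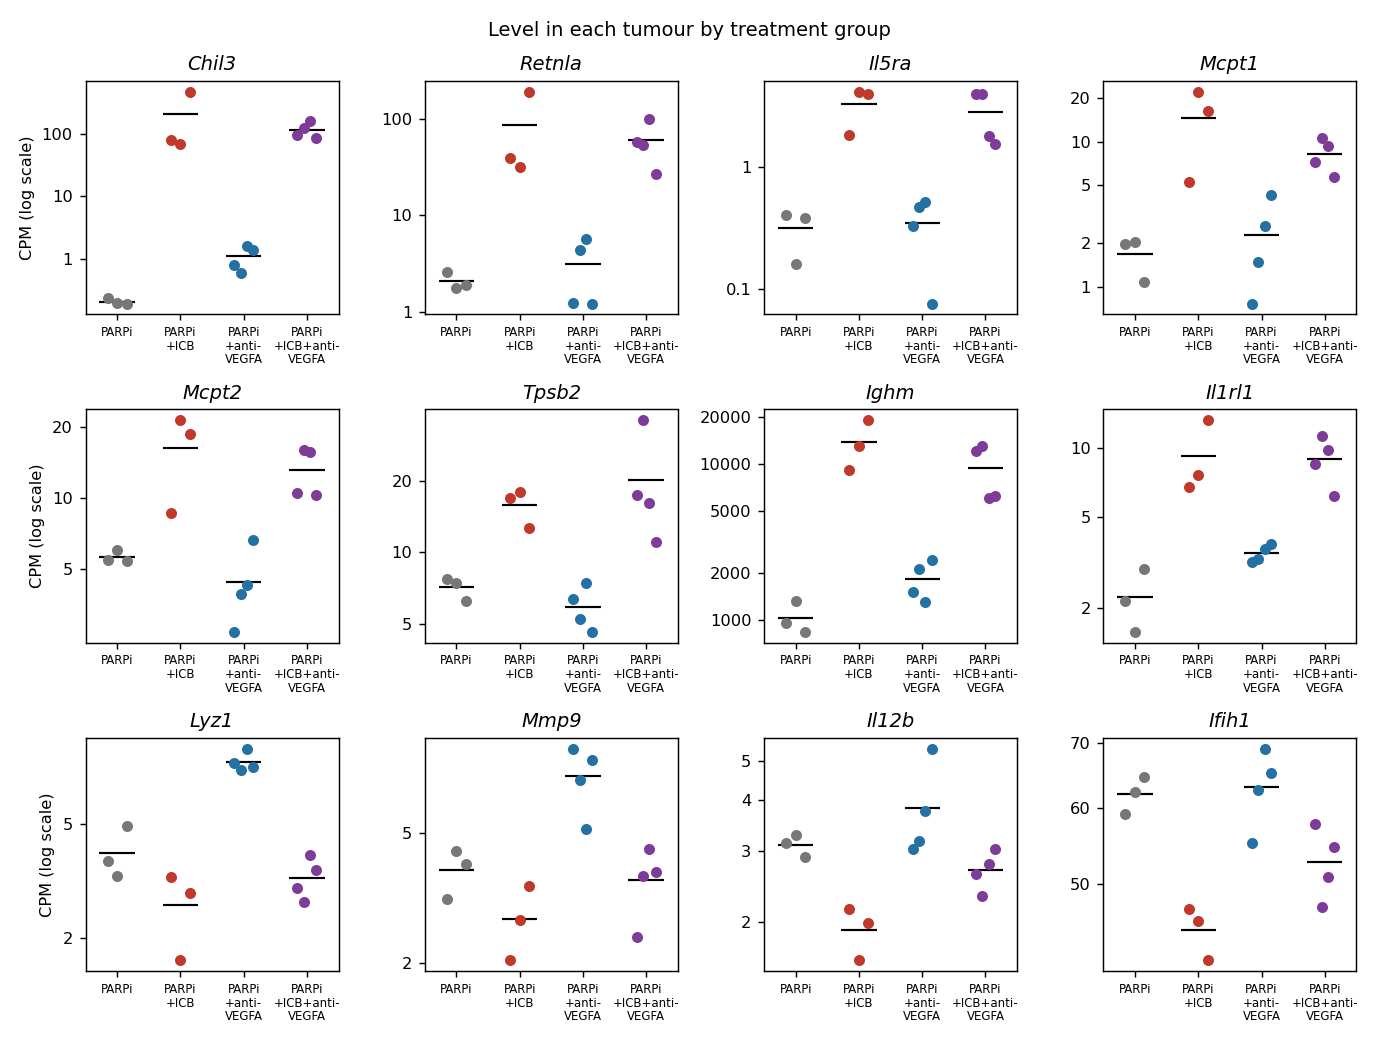
CPM in each tumour (vertical axes, log scale) for 12 genes under PARPi (grey, n = 3), PARPi+ICB (red, n = 3), PARPi+anti-VEGFA (blue, n = 4) and the full combination (purple, n = 4); points are tumours and bars are arithmetic means. In the first 8 panels every red point lies above every blue point, and in the last 4 every red point lies below every blue point; Tpsb2 is the only one of the 12 that was not called.

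Immunoglobulin RNA was led by Ighm (ENSMUSG00000076617), which encodes the IgM heavy chain and lies on chromosome 12 from 113418558 to 113422730. Ighm stood at 9200, 13202 and 19234 CPM with PARPi+ICB against 1517, 2133, 1313 and 2411 CPM with PARPi+anti-VEGFA. The groups were far apart, and the log2 fold change was 2.91 ± 0.38 (edgeR adjusted p 0.00403). PARPi alone stood at 836 to 1315 CPM. Ighm kept its call in all 7 fits that each left out a library, with log2 values from 2.60 to 3.14. Of the 12 constant region genes tested, Ighm alone was called, 9 had a positive log2 fold change and the median was 1.01. Ighg3 stood at 486, 245 and 308 CPM against 62.8, 89.3, 27.6 and 158 CPM, without overlap (log2 2.04 ± 0.85, edgeR adjusted p 0.412). Ighg1 stood at 1285, 787 and 2060 CPM against 48.5, 299, 739 and 499 CPM, also without overlap (log2 1.80 ± 0.83, edgeR adjusted p 0.459). The light chain gene Iglc1 gave a log2 value of 2.42 ± 0.67 (edgeR adjusted p 0.189).

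Of 185 variable segments of the antibody heavy chain, 91 had enough counts to be tested, which favours segments high in either group. Of these, 63 had a positive log2 fold change, and 24 of the 91 lay higher in every PARPi+ICB tumour, against 5.09% of all genes. For kappa light chain segments the counts were 54 of 87 and 10 of 87. A single segment of each kind was called: Ighv7-1, at 17.0, 25.5 and 56.8 CPM against 1.50, 0.500, 1.53 and 0.151 CPM (log2 5.15 ± 0.90, edgeR adjusted p 0.020), and Igkv6-20, at 1.66, 2.10 and 28.5 CPM against 0.413, 0.236, 0.365 and 0.340 CPM (log2 4.98 ± 0.95, edgeR adjusted p 0.0415). Both are named because they were called, after their values were seen. Segments resemble one another closely, so their reads can be shared. Igkv6-20 was high in PARPi+ICB replicate 3 and its log2 value without that tumour was 2.46 (adjusted p 0.355). T cell receptor segments had 0 of 19 at an unadjusted p under 0.05 or called by edgeR.

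Genes that mark plasma cells, apart from the immunoglobulins, had smaller differences. All 11 had a positive log2 fold change with a median of 0.37, edgeR called 0, DESeq2 1 and limma 0, and 2 were higher at an unadjusted p under 0.05. PARPi+anti-VEGFA replicate 2 was the lowest of the 7 tumours for 9 of the 11 and PARPi+ICB replicate 3 the highest for 8, and the medians without them were 0.20 and 0.19. Fkbp11, a folding factor of secretory cells, stood at 17.9, 15.3 and 18.6 CPM against 13.5, 13.3, 13.2 and 13.2 CPM (log2 0.38 ± 0.10, edgeR adjusted p 0.174), so the groups did not overlap. Tnfrsf17, the survival receptor BCMA, stood at 4.33, 2.87 and 4.27 CPM against 2.24, 1.77, 1.86 and 2.99 CPM, with overlap. B cell genes had 10 of 12 positive and a median of 0.28, with 0 called by edgeR, DESeq2 or limma and 2 at an unadjusted p under 0.05, 1 in each direction. PARPi+ICB replicate 3 was the highest tumour for 9 of the 12, and without it the median was 0.04. Ly6d (chromosome 15, 74762056 to 74763620), a surface protein of B lineage and epithelial cells, was called: 14.4, 17.8 and 22.2 CPM against 8.49, 7.98, 9.37 and 9.45 CPM, a log2 fold change of 1.04 ± 0.18 (edgeR adjusted p 0.0189, and 0.141 without PARPi+ICB replicate 3).

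The remaining genes higher with PARPi+ICB were of mixed kinds. Col6a5 (chromosome 9, 105856078 to 105960643), a chain of type VI collagen, stood at 92.2, 93.4 and 227 CPM against 7.07, 18.6, 37.3 and 21.6 CPM (log2 2.70 ± 0.49, edgeR adjusted p 0.0278). Its groups did not overlap, and the call was lost without PARPi+anti-VEGFA replicates 2 or 4 (0.113 and 0.0886) or PARPi+ICB replicate 3 (0.166). Other collagen and fibroblast genes did not share this: of 18, 0 were called by edgeR, DESeq2 or limma, 5 had an unadjusted p under 0.05, and the median log2 fold change was -0.10. Aldh1a3 (chromosome 7, 66390890 to 66427517), an enzyme of retinoic acid synthesis, stood at 22.8, 23.3 and 24.3 CPM against 15.3, 14.2, 13.3 and 15.5 CPM. The spread within each group was small beside the gap, and the log2 fold change of 0.69 ± 0.10 (edgeR adjusted p 0.00498) was called in every one of 15 alternative settings. PARPi alone stood between the groups for Aldh1a3, at 18.5 to 19.2 CPM.

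Smaller differences were called for Sult5a1, a sulfotransferase (log2 1.17 ± 0.19), Tmem26, a membrane protein (1.14 ± 0.20), Kcnma1, the pore of a calcium-activated potassium channel (0.85 ± 0.14), and Rnd2, a small GTPase (0.63 ± 0.10), with edgeR adjusted p from 0.0135 to 0.0207. Each of these 4 genes lay higher in every PARPi+ICB tumour, which was a condition of naming them. Their calls were kept in 4, 2, 3 and 4 of the 7 fits that each left out a library, with the largest adjusted p at 0.0715, 0.161, 0.074 and 0.0824. Another 4 called genes fell outside the 15 largest and are named after their values were seen. These were Gpcpd1, which breaks down glycerophosphocholine (log2 0.57 ± 0.08, edgeR adjusted p 0.00602), Slc23a2, a vitamin C transporter (0.46 ± 0.07, 0.00602), Wnt11, a secreted Wnt ligand (0.52 ± 0.10, 0.0419), and Vav2, an exchange factor for small GTPases (0.23 ± 0.04, 0.0378). Gpcpd1 and Slc23a2 were called in all 7 fits that each left out a library, Wnt11 in 1 (adjusted p up to 0.166) and Vav2 in 0 (0.0752 to 0.16).

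Among the 8 genes lower with PARPi+ICB, Lyz1 (ENSMUSG00000069515, chromosome 10, 117287797 to 117292868), a lysozyme, had the smallest p. Lyz1 stood at 3.26, 1.67 and 2.88 CPM with PARPi+ICB against 8.16, 7.68, 9.15 and 7.90 CPM with PARPi+anti-VEGFA, a log2 fold change of -1.66 ± 0.23 (edgeR adjusted p 0.00498). Its neighbour and close paralog Lyz2, the lysozyme of macrophages, stood at 828, 703 and 1127 CPM against 1242, 1091, 1175 and 1073 CPM (log2 -0.37 ± 0.15, edgeR adjusted p 0.386). Reads of Lyz2 assigned to Lyz1 would add to the Lyz1 level, and their share was not tested. PARPi alone lay between the groups for Lyz1, at 3.28 to 4.90 CPM, and overlapped with neither.

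Mmp9 (chromosome 2, 164940780 to 164955850), a gelatinase of myeloid and invading cells, stood at 2.04, 2.72 and 3.44 CPM against 9.10, 7.27, 5.14 and 8.43 CPM (log2 -1.46 ± 0.28, edgeR adjusted p 0.0419). Il12b (chromosome 11, 44400063 to 44414033), the subunit that IL-12 and IL-23 share, stood at 2.15, 1.61 and 1.98 CPM against 3.03, 3.18, 3.76 and 5.37 CPM (log2 -0.996 ± 0.188, edgeR adjusted p 0.0403). Rad51c (chromosome 11, 87376645 to 87404954), a factor of homologous recombination, stood at 3.02, 2.50 and 2.12 CPM against 4.01, 4.45, 5.43 and 4.91 CPM (log2 -0.88 ± 0.15, edgeR adjusted p 0.0189). None of the 3 genes overlapped between the groups. Mmp9 and Il12b each kept the call in 1 of the 7 fits that left out a library (adjusted p 0.044 to 0.149 and 0.0282 to 0.16), and Rad51c in 2 of 7 (0.0157 to 0.13).

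Nxf3, a relative of the mRNA export factor, stood at 0.901, 1.17 and 0.860 CPM against 3.15, 3.50, 2.70 and 2.57 CPM (log2 -1.61 ± 0.28, edgeR adjusted p 0.020). Lgals3bp, a secreted glycoprotein that binds galectins, gave a log2 value of -0.43 ± 0.08 (edgeR adjusted p 0.0429), and Ugp2, which makes UDP-glucose, of -0.27 ± 0.04 (edgeR adjusted p 0.0135). On leaving out each library, Nxf3 kept its call in 3 of 7 fits, Lgals3bp in 1 and Ugp2 in 6, with the largest adjusted p at 0.13, 0.181 and 0.0549. Of the uncalled genes that lay lower in every PARPi+ICB tumour, the 7 with the smallest p fill the 15 named in this direction: Ano1, Tm4sf1, Helz2, Clec5a, Lgals9, Ifi44 and Clca3a2, with log2 values from -0.99 (Clca3a2) to -0.32 (Helz2) and edgeR adjusted p from 0.0566 to 0.083.

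Type I interferon response genes had a negative log2 fold change in 22 of 22 members, with a median of -0.53 against 0.01 over all genes. EdgeR called 1 of the 22, DESeq2 9 (210 of 18144 over all genes) and limma 0 of 20. At an unadjusted p under 0.05, 19 were lower (5.40% of all genes). Of the 22, 8 lay lower in every PARPi+ICB tumour (4.92% of all genes). Ifih1 (chromosome 2, 62595798 to 62646255), which encodes the RNA sensor MDA5, was the member called: 47.1, 45.8 and 41.7 CPM against 55.1, 62.6, 69.1 and 65.2 CPM, a log2 fold change of -0.49 ± 0.09 (edgeR adjusted p 0.0403). It kept the call in 1 of 7 fits that left out a library (0.0219 to 0.199). Oas3, an enzyme of the antiviral RNase L pathway, stood at 24.4, 25.5 and 14.1 CPM against 27.5, 45.4, 47.2 and 39.3 CPM (log2 -0.90 ± 0.21, edgeR adjusted p 0.108). Oas2 of the same family gave a log2 value of -0.83 ± 0.21 and Ifi44 of -0.82 ± 0.18.

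The interferon difference was uneven between tumours. PARPi+ICB replicate 3 was the lowest of the 7 tumours for 20 of the 22 genes, and PARPi+anti-VEGFA replicate 3 the highest for 13. Without PARPi+ICB replicate 3 the median was -0.37 and 11 members had an unadjusted p under 0.05. Irf7, the amplifier of this response, stood at 86.6, 87.6 and 57.0 CPM against 87.0, 119, 124 and 120 CPM (log2 -0.55 ± 0.14, edgeR adjusted p 0.152), so PARPi+anti-VEGFA replicate 1 lay among the PARPi+ICB tumours. The mean log2 CPM of the 22 genes was 5.41, 5.45 and 4.82 with PARPi+ICB, 5.42, 5.86, 5.97 and 5.83 with PARPi+anti-VEGFA, and 5.67 to 5.77 under PARPi alone. Interferon gamma response genes had 12 of 13 negative with a median of -0.17, and 0 were called by edgeR, DESeq2 or limma, with 1 at an unadjusted p under 0.05. PARPi+anti-VEGFA replicate 3 was the highest tumour for 11 of the 13 and PARPi+ICB replicate 2 the lowest for 9, and the medians without them were -0.07 and -0.05. The 1 gene was Cxcl10, a chemokine for activated T cells, at 66.2, 54.3 and 55.5 CPM against 67.6, 76.5, 97.0 and 96.6 CPM (log2 -0.52 ± 0.18, edgeR adjusted p 0.297).

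The promoter of Oas3 (chr5:120777660-120777909, minus strand, 250 bases before the start) is shown because it holds the motif of this gene group. Capitals mark the match to GAAA and GAAA with any 2 bases between, the core of the interferon-stimulated response element, searched on both strands (TTTC in its place on the other).
Oas3: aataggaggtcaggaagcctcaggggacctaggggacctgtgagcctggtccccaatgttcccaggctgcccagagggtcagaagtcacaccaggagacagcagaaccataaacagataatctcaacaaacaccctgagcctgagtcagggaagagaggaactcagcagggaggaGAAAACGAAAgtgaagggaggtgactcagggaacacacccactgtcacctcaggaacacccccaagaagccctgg
In the RefSeq windows of 300 bases, 16 promoters of 15 list genes were found and 9 of them held the motif, against 3.44% of 32851 promoters. Ifih1 held 1 match, starting 32 bases after its gene start. The list was made of genes of this response, so the share with the motif is no result of the comparison. A match describes the letters only.

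Proliferation genes had a negative log2 fold change in 17 of 17 members, with a median of -0.29. EdgeR, DESeq2 and limma called 0, 11 of 17 were lower at an unadjusted p under 0.05 (5.40% of all genes), and 10 lay lower in every PARPi+ICB tumour (4.92% of all genes). With the structural RNA covariate, 5 were lower at an unadjusted p under 0.05. Tyms, the thymidylate synthase, stood at 35.9, 28.6 and 26.1 CPM against 39.9, 38.6, 38.6 and 37.2 CPM (log2 -0.35 ± 0.11, edgeR adjusted p 0.222). The mitotic kinase Aurkb stood at 20.3, 15.7 and 16.2 CPM against 22.0, 26.5, 24.1 and 24.2 CPM (log2 -0.47 ± 0.14, edgeR adjusted p 0.222). PARPi+ICB replicate 1 lay close to the PARPi+anti-VEGFA tumours in both genes, and replicate 3 was the lowest of the 7 tumours for 11 of the 17. Without replicate 3 the median was -0.23 with 4 at an unadjusted p under 0.05, and without replicate 2 it was -0.24 with 5.

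Rad51c is the 1 gene of DNA repair named above as called, and the list of DNA repair genes does not hold it. The 16 genes of that list, the setting of the olaparib target, had 12 negative and a median of -0.05, with 0 called by edgeR, DESeq2 or limma and 1 at an unadjusted p under 0.05. Parp1 stood at 248, 257 and 242 CPM against 287, 280, 235 and 236 CPM (log2 -0.06 ± 0.07, edgeR adjusted p 0.821), and Parp2 at 44.8, 42.0 and 44.9 CPM against 46.2, 41.2, 42.7 and 45.0 CPM. Both overlapped between the groups.

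**Figure D3:**
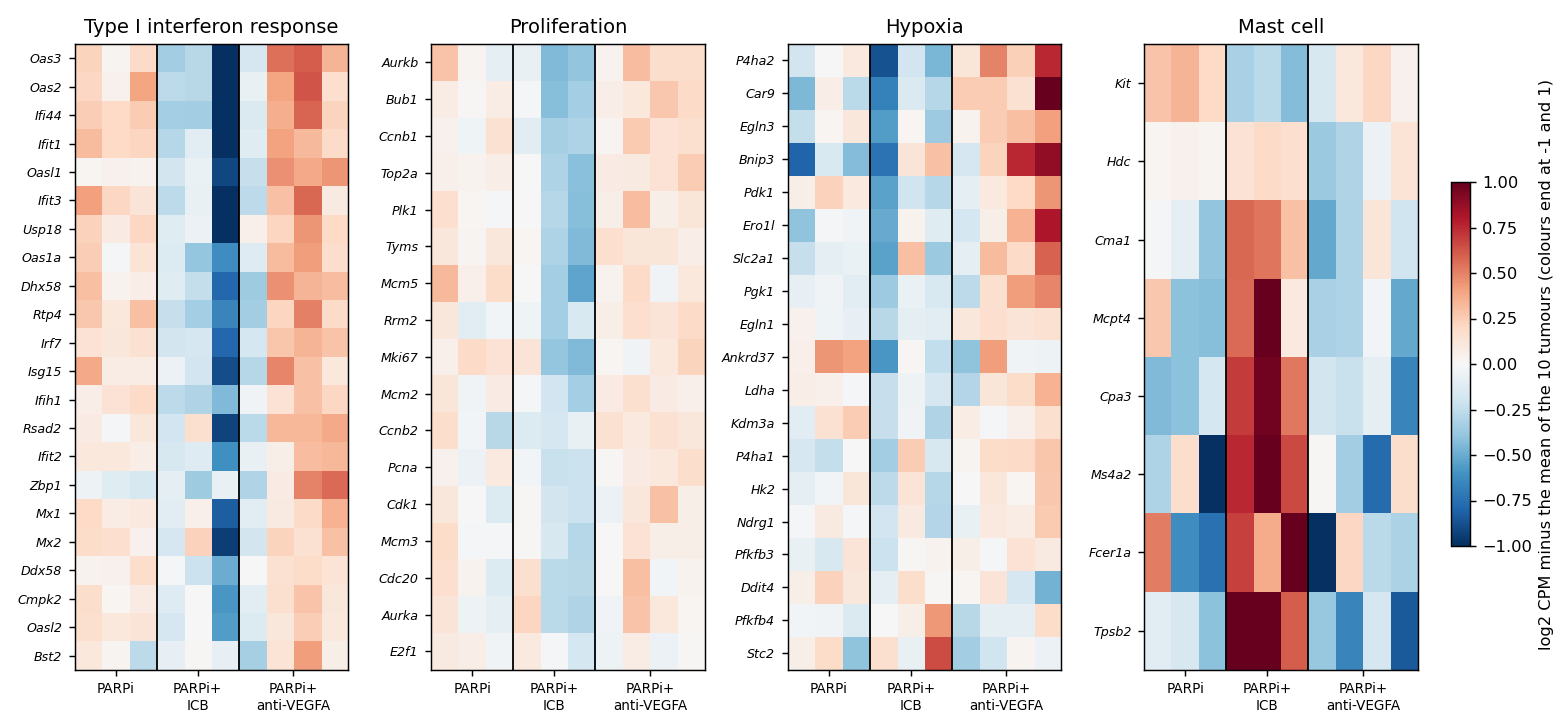
Log2 CPM of each gene in each tumour minus its mean over the 10 tumours shown (colour, ending at -1 and 1), for 4 gene lists under PARPi, PARPi+ICB and PARPi+anti-VEGFA, with genes ordered by log2 fold change. Columns within a group follow the replicate number. Interferon genes are darkest blue in PARPi+ICB replicate 3, and the 7 mast cell genes other than Kit are red in the 3 PARPi+ICB tumours.

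Hypoxia genes had a negative log2 fold change in 16 of 19 members with a median of -0.27. EdgeR called 0, DESeq2 4 lower (115 of 18144 over all genes) and limma 0. At an unadjusted p under 0.05, 11 were lower (5.40% of all genes), and 6 lay lower in every PARPi+ICB tumour (4.92% of all genes). P4ha2, a collagen prolyl hydroxylase induced by low oxygen, stood at 20.8, 33.4 and 27.7 CPM against 41.4, 53.7, 45.0 and 64.3 CPM (log2 -0.90 ± 0.23, edgeR adjusted p 0.144). Egln3, one of the oxygen-sensing prolyl hydroxylases, stood at 104, 156 and 120 CPM against 157, 183, 190 and 205 CPM (log2 -0.54 ± 0.16, edgeR adjusted p 0.209). Car9, a carbonic anhydrase, gave a log2 value of -0.86 ± 0.30 and Pdk1, a brake on pyruvate entry into mitochondria, of -0.51 ± 0.14. PARPi+ICB replicate 1 was the lowest tumour for 12 of the 19 genes and PARPi+anti-VEGFA replicate 4 the highest for 13. With either of them left out, 5 members were lower at an unadjusted p under 0.05, and the medians were -0.23 and -0.27. Without PARPi+ICB replicate 3 it was 7. PARPi+anti-VEGFA replicate 4 also held acinar RNA, and without the 4 libraries that held it the median was -0.31 with 8 lower at an unadjusted p under 0.05. Under PARPi alone the mean log2 CPM of the list was 5.70 to 5.87, with a mean of 5.79 between that of PARPi+ICB (5.68, from 5.46 to 5.85) and that of PARPi+anti-VEGFA (5.98, from 5.75 to 6.18), and it overlapped with both.

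The promoters of P4ha2 (chr11:54100674-54100923, plus strand) and Egln3 (chr12:54203875-54204124, minus strand) are shown as examples of the motif of this group, with capitals on ACGTG, the core of the hypoxia response element, searched also as CACGT on the other strand.
P4ha2: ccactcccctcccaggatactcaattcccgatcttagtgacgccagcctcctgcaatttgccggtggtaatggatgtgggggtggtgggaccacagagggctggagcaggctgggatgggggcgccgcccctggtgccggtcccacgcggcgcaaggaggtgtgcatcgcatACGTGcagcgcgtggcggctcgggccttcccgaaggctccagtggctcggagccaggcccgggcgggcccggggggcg
Egln3: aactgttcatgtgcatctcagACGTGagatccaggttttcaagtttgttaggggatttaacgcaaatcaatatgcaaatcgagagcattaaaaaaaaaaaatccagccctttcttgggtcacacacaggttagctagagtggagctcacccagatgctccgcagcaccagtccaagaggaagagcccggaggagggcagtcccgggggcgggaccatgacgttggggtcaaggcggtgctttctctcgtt
Of 23 RefSeq promoters of 18 hypoxia genes, 15 held the motif within 300 bases, against 19.6% of 32851 promoters. These genes too were listed for their response, so the share is no result of the comparison, and a match describes the letters only.

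Of the VEGF ligands and receptors, Vegfa had the smallest p, without being called. Vegfa (chromosome 17, 46016993 to 46032369), the ligand that anti-VEGFA binds, stood at 315, 526 and 336 CPM with PARPi+ICB against 510, 602, 528 and 658 CPM with PARPi+anti-VEGFA. PARPi+ICB replicate 2 lay among the PARPi+anti-VEGFA tumours, and the log2 fold change was -0.55 ± 0.18 (edgeR adjusted p 0.264), or -0.82 (0.0967) without that tumour. Kdr, the main signalling receptor, stood at 28.6, 28.3 and 29.6 CPM against 37.0, 34.5, 33.4 and 28.2 CPM (log2 -0.21 ± 0.10, edgeR adjusted p 0.465). Flt1, a decoy-like receptor, was level between the groups at 76.5 to 90.2 and 77.3 to 92.7 CPM (log2 0.01 ± 0.13), and the placental growth factor gene Pgf gave a log2 value of 0.15 ± 0.25. Of 10 VEGF ligand and receptor genes, 0 were called by edgeR, DESeq2 or limma. At an unadjusted p under 0.05, 4 were lower (5.40% of all genes). Among them Flt4 and Nrp2, 2 of the 10, lay lower in every PARPi+ICB tumour (4.92% of all genes). Endothelial identity genes had 9 of 17 positive and a median of 0.05, and tip cell genes 4 of 14 positive and a median of -0.06, with 0 called in either list by edgeR, DESeq2 or limma and 2 and 3 at an unadjusted p under 0.05. Pecam1, an adhesion molecule of endothelium, stood at 61.4 to 67.0 CPM against 63.9 to 74.0 CPM. Among pericyte genes, Ndufa4l2 had the smallest p, at 9.95, 16.9 and 14.4 CPM against 24.2, 33.2, 27.7 and 42.1 CPM (log2 -1.21 ± 0.31, edgeR adjusted p 0.152). It is also a known hypoxia-inducible gene. Of the 11 pericyte genes, edgeR called 0, DESeq2 1 and limma 0, 9 were negative and the median was -0.20.

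T cell genes, the lineage that checkpoint antibodies act on, had a positive log2 fold change in 16 of 16 members with a median of 0.26. EdgeR, DESeq2 and limma called 0, and 1 of 16 was higher at an unadjusted p under 0.05. That gene was Cd6, at 11.6, 8.99 and 12.9 CPM against 9.55, 6.59, 7.07 and 10.3 CPM, so its groups overlapped. PARPi+ICB replicate 3 was the highest tumour for 15 of the 16, and without it the median was 0.04. The antibody targets were not called: Cd274, which encodes PD-L1, stood at 55.4, 48.8 and 56.6 CPM against 51.2, 41.1, 63.3 and 73.4 CPM, and Ctla4 at 8.37, 5.62 and 10.7 CPM against 3.98, 4.80, 9.44 and 7.97 CPM. Pdcd1, which encodes PD-1, stood at 6.27 to 11.5 CPM against 5.92 to 9.19 CPM, again with overlap. Cytotoxic genes had a median of 0.07 with 0 of 14 called by edgeR, DESeq2 or limma and 2 at an unadjusted p under 0.05 (Gzmk and Eomes, both higher). Gzmk, a granzyme of memory CD8 T cells, stood at 1.05, 1.64 and 1.89 CPM against 0.619, 0.383, 1.28 and 0.453 CPM.

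NK cell genes went the other way, with 7 of 8 negative and a median of -0.61. EdgeR, DESeq2 and limma called 0, and 1 of 8 was lower at an unadjusted p under 0.05 (5.40% of all genes). This was the chemokine Xcl1, at 5.47, 3.74 and 6.28 CPM against 8.22, 8.42, 9.92 and 7.48 CPM (log2 -0.72 ± 0.22, edgeR adjusted p 0.217). Klra8, which encodes the activating receptor Ly49H, stood at the low levels of 0.320, 0.402 and 0.364 CPM against 0.825, 0.648, 1.06 and 0.491 CPM, also without overlap. These 2 of 8 genes lay lower in every PARPi+ICB tumour (4.92% of all genes). PARPi+anti-VEGFA replicate 3 was the highest tumour for 5 of the 8 NK cell genes and PARPi+ICB replicate 2 the lowest for 4. The genes of antigen presentation had medians of 0.06 for class I and 0.15 for class II. In both lists edgeR, DESeq2 and limma called 0 and 0 had an unadjusted p under 0.05. PARPi+ICB replicate 3 was the highest tumour for 7 of 12 class I and 9 of 9 class II genes, and without it the medians were -0.08 and -0.02. PARPi+anti-VEGFA replicate 1 was the lowest for 9 of 12 class I genes, with a median of -0.02 without it. Dendritic cell genes had 9 of 12 negative with a median of -0.18, with 0 called by edgeR, 1 by DESeq2 and 0 by limma. Ccl22, a chemokine of mature dendritic cells, had the smallest p of that list, at 14.0, 8.87 and 14.6 CPM against 17.5, 17.8, 23.9 and 23.3 CPM (log2 -0.73 ± 0.17, edgeR adjusted p 0.121). Ccl8, a chemokine of macrophages, lay higher in every PARPi+ICB tumour, at 27.8, 27.3 and 52.1 CPM against 9.87, 14.5, 20.7 and 18.9 CPM (log2 1.16 ± 0.34, edgeR adjusted p 0.201). Cxcl12, a stromal chemokine, lay lower, at 61.6, 70.1 and 74.2 CPM against 92.4, 91.9, 99.9 and 85.0 CPM (log2 -0.43 ± 0.10, edgeR adjusted p 0.112).

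**Figure D4:**
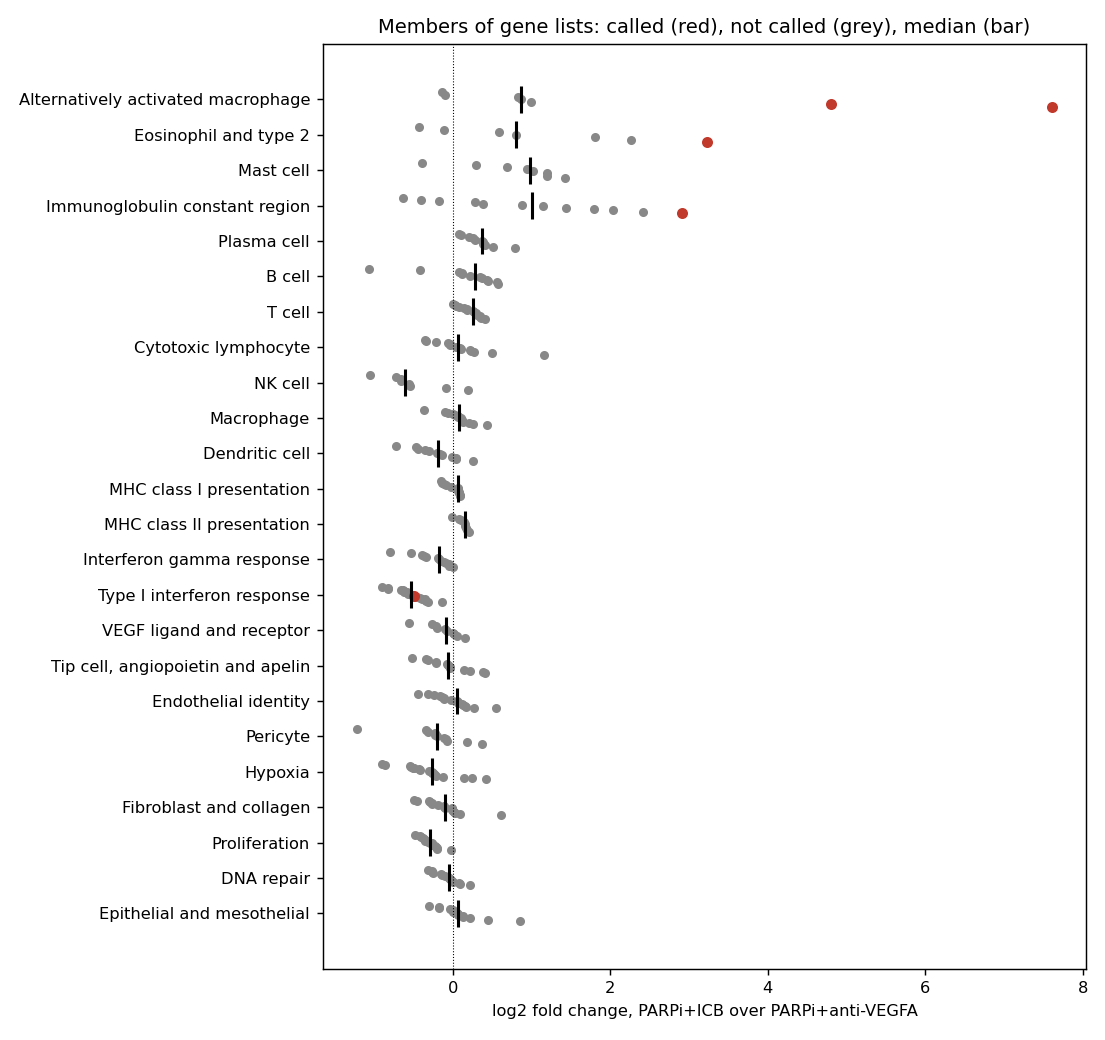
Log2 fold change of PARPi+ICB over PARPi+anti-VEGFA (horizontal axis) for each tested member of 24 of the 44 gene lists; red points were called, grey points were not, and black bars are medians. Medians range from -0.61 (NK cell) to 1.01 (immunoglobulin constant region), and 20 of the 24 lists hold no called gene.

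The 29 called genes were also read in the groups on either side of this comparison, as a description with no test, since the genes were chosen on the contrast itself. Measured from PARPi alone on the log2 CPM scale, the PARPi+ICB mean was the farther of the pair for 21 of 29 genes, 16 of the 21 higher and 5 of the 8 lower. In the full combination, which holds both partners, the mean was nearer to PARPi+ICB for 24 of 29, 19 of the 21 higher and 5 of the 8 lower. The same shares over all genes were not computed, so these counts have no background to be read against. Chil3 stood at 86.2 to 160 CPM in the full combination and Ighm at 6112 to 13031 CPM, each above every PARPi+anti-VEGFA tumour. Rad51c stood at 3.69 to 4.64 CPM there, nearer to PARPi+anti-VEGFA. Lgals3bp stood at 203 to 254 CPM there. Its mean log2 CPM of 7.81 lay about midway between PARPi+ICB (7.60) and PARPi+anti-VEGFA (8.02).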

How the data were processed

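Total RNA from frozen tumour tissue (TRIzol and a column) was made into stranded whole-transcriptome libraries after depletion of abundant RNA, per the labels' protocols. STAR, HTSeq and GRCm38 are named in the submitters' processing notes; versions, annotation and the strand setting of the counting are not given in the sources used here, so overlapping and antisense genes may share reads. The authors deposited raw read counts per Ensembl gene, used for all main values, and log2 values of RPKM per coding sequence with 1 added, used for 1 alternative. The labels name no batch and no pairing of animals.

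Of 55406 genes, 55141 identifiers matched GENCODE M21 (GRCm38), which gave symbols and positions. Genes were kept by filterByExpr (minimum count 10, minimum total 15), which left 18144. Counts were scaled by TMM (edgeR 4.0.16, R 4.3.3) and fitted with the quasi-likelihood F test on all 20 libraries with 1 coefficient per group, so that the 6 groups share the estimate of the spread. P-values were Benjamini-Hochberg adjusted over all genes, and genes with an adjusted p under 0.05 are those called. SEs were taken from the F statistic, as the size of the log2 fold change over its square root. The level of a list is its mean log2 CPM (prior count 2). Alternatives were DESeq2 1.42.0, limma 3.58.1 on the deposited log2 values, other scaling, no filter, the 7 libraries alone, a replicate block, leaving out each library, leaving out the libraries with acinar RNA, and a covariate for structural RNA. On simulated counts for 17875 genes with 200 changed, edgeR recovered 89% and DESeq2 95% of the genes changed 2-fold, and 6.5% and 15.0% of their calls were false. The changed genes were drawn above a minimum level, and the simulation held no outlying tumours or neighbouring tissue. These rates therefore need not hold for the real tumours, where uncalled genes such as Tpsb2 also differed more than 2-fold.

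Named genes are the 15 with the largest change in each direction among called genes whose groups do not overlap and whose mean reaches 1 CPM (filled with uncalled genes of smallest p, without gene models or antibody and T cell receptor segments), up to 5 per list of smallest p, and 11 genes of the drug targets and tumour genotype. The comparison, its 44 gene lists (486 genes tested) and the named genes were chosen with earlier results of these data known. Replicates were compared by counts, and no pair agreed within sampling noise.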

Additional observations from a re-analysis of the deposited data

Results flagged for a closer look

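In the group of 4 PARPi+anti-VEGFA tumours, 5 of 146 values examined had 1 tumour far from the other 3 by Dixon's ratio (above its 95% critical value), where chance gives about 1 in 20. Tmem26 stood at 3.03 CPM in replicate 2 and at 2.42 to 2.50 CPM in the others. Lgals9 stood at 175 CPM in replicate 1 and at 189 CPM in each of the others. Irf7 stood at 87.0 CPM in replicate 1 and at 119 to 124 CPM in the others. Car9 stood at 10.7 CPM in replicate 4 and at 5.47 to 5.89 CPM in the others. The mean log2 CPM of p53 target genes was 5.02 in replicate 3 and 4.85 to 4.87 in the others. Groups of 3 were not tested in this way.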

How the results depend on the processing

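All 29 called genes kept their direction in each of 15 alternative settings that gave them a value (27 of 27 for limma). The count of called genes was 58 (37 higher, 21 lower) with no filter, 210 (95 and 115) with DESeq2, 5 (5 and 0) in the 7 libraries alone, 9 (7 and 2) without the libraries holding acinar RNA, and 17 (10 and 7, with 13 of the 29) with the structural RNA covariate. Leaving out 1 library gave 7 to 33 called, 5 to 22 higher and 1 to 14 lower. Tumours of the same replicate number correlated at 0.030, 0.344 and 0.130 in their deviations from the group means. Whether these numbers mark pairs was not tested. With the replicate block 23 were called, 20 higher and 3 lower, 17 of them among the 29. PARPi+ICB replicate 1 correlated best with PARPi+anti-VEGFA replicate 3, and replicates 2 and 3 with their own numbers. Of the 102 genes with recomputed values, 96 never changed sign. Leaving out 1 library moved the log2 fold change of Pgf between -0.15 and 0.37, of Flt1 between -0.030 and 0.084, of Cd274 between -0.22 and 0.049, of Pdcd1 between -0.064 and 0.37, of Parp2 between -0.021 and 0.037 and of Ear2 between -0.45 and 0.99. Flt1 was -0.081 with the covariate, and Cd274 was 0.039 without the acinar libraries. The cause of these changes was not tested. Genes with few reads, such as Rnase2a and Il5, are limited by counting error as well.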

Other observations

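Other gene groups held no called gene. Neutrophil genes had a positive log2 fold change in 9 of 11 members, with a median of 0.56 and 2 at an unadjusted p under 0.05, 1 in each direction, and DESeq2 and limma also called 0. PARPi+anti-VEGFA replicate 1 was the lowest tumour for 10 of the 11 and PARPi+ICB replicate 3 the highest for 7, and the median was 0.16 without the first and -0.47 without the second. Smooth muscle genes had 6 of 7 negative with a median of -0.28. Myh11, the smooth muscle myosin heavy chain, stood at 19.0, 23.6 and 21.6 CPM with PARPi+ICB against 31.6, 28.7, 29.4 and 30.0 CPM with PARPi+anti-VEGFA (log2 -0.48 ± 0.18, edgeR adjusted p 0.344), so the groups did not overlap. Of 6 genes of cytosolic DNA sensing, edgeR and limma called 0 and DESeq2 2 (210 of 18144 over all genes). Of the 6, 2 lay lower in every PARPi+ICB tumour (4.92% of all genes). Ifi204, a DNA-binding sensor, stood at 129, 121 and 114 CPM against 134, 153, 171 and 171 CPM (log2 -0.37 ± 0.09, edgeR adjusted p 0.133). Cgas, the enzyme that makes the messenger for STING, stood at 13.0, 10.9 and 9.76 CPM against 15.1, 13.8, 14.0 and 16.1 CPM (log2 -0.40 ± 0.11, edgeR adjusted p 0.187), again without overlap.

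Single tumours carried some large values. Hspa1a, an inducible heat shock chaperone, stood at 27.1 CPM in PARPi+ICB replicate 2 and at 0.416 to 1.06 CPM in the other 6 tumours, and its log2 fold change was 3.73 with all tumours and 0.34 without that one. Cel, a pancreatic lipase, stood at 61.3 and 63.2 CPM in PARPi+anti-VEGFA replicates 1 and 4 on 2082 and 1673 reads, with 1 read in the other 5 tumours together. PARPi+ICB replicate 3 was the highest of the 7 tumours for 15 of 16 T cell genes and the lowest for 20 of 22 type I interferon genes.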
